A study of Rattus norvegicus with 48 samples.

Results

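Leukocyte miRNAs are mature miRNAs that are abundant in white blood cells, and 7 of them were followed here in rat plasma: rno-miR-223-3p, rno-miR-142-5p, rno-miR-142-3p, rno-miR-146a-5p, rno-miR-146b-5p, rno-miR-150-5p and rno-miR-155-5p, written without the rat prefix from here on. They were chosen by name, with earlier results of these data known, and all 7 were among the 645 mature rat miRNAs in the count table. Small RNA of blood plasma from 12 rats was sequenced before surgery (baseline) and at weeks 1, 4 and 8 after it, which gave 48 samples. All were male rats, 12 weeks old at surgery, of a strain that the sources give as either Sprague-Dawley or Wistar, and all received a standardized defect in the calvaria, the bony roof of the skull. The defects had been left empty or filled with a collagen hydroxyapatite scaffold, used alone, loaded with a plasmid for both BMP2 and miR-590-5p, or loaded with extracellular vesicles. The labels do not give the treatment of each rat, so the treatments could not be separated. The labels divide the rats into 6 strong and 6 weak regenerators, a division made by the outcome of bone healing. The authors picked these rats from a larger cohort as the best and the worst healers by bone volume. The groups are therefore selected extremes. Baseline samples carry no such label and were assigned through their animal. By the authors' counts, the scaffold used alone occurs only among strong regenerators, and most rats with the plasmid-loaded scaffold were weak regenerators. Outcome and treatment are thus not balanced and cannot be told apart here.

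A miRNA is a short RNA that is cut from one of the arms (5p or 3p) of a hairpin and that lowers the output of the mRNAs its seed, bases 2 to 8, can pair with. Usually an arm is kept and its partner degraded, but in the miR-142 hairpin both arms are used. miR-142 is expressed throughout the blood cell lineages, miR-223 is known from neutrophils and other myeloid cells, and miR-150 from mature lymphocytes. miR-155 and miR-146a are induced when immune cells are activated through NF-κB, the latter as a brake on the same signal. Blood cells release miRNAs into plasma, and cells also leave them behind when they break during sampling. In plasma, a lower level of a miRNA from fewer cells of a type cannot be told apart from less RNA per cell or less release.

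The sequences below show which members share a seed and what separates close relatives. Mature sequences of 6 of the 7 members were found in RefSeq (build GRCr8), and miR-150-5p is named only. Capitals mark the seed.

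miR-223-3p: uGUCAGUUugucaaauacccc

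miR-142-5p: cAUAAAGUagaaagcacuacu

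miR-142-3p: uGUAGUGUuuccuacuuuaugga

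miR-155-5p: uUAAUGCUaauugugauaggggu

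miR-146a-5p: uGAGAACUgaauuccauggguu

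miR-146b-5p: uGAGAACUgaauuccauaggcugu

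The 6 sequences hold 5 different seeds, and only miR-146a-5p and miR-146b-5p share one. Counted from the 5′ end of miR-146a-5p, the pair differs by G18A and U21C over 22 bases, and miR-146b-5p is 2 bases longer. Reads were matched to mature miRNAs with up to 1 mismatch and from a length of 17 bases. Short reads of either miRNA may therefore fit both, and the split of reads between the pair is uncertain. The miR-142 hairpin is shown because its 2 arms behaved differently. It lies on the plus strand at chr10:73055104-73055190 (GRCr8) and overlaps the gene Tspoap1 in position. Capitals mark the 5p arm and then the 3p arm.

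miR-142 hairpin: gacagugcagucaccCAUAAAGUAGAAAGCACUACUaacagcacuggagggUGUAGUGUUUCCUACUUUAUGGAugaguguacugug

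The other hairpins found overlap annotated genes too. On the same build, miR-223 is on chromosome X and overlaps the long non-coding RNA LOC120099372. miR-146a is on chromosome 10 and overlaps the long non-coding RNA LOC134480673. miR-146b is on chromosome 1 and overlaps C1h10orf95, and miR-155 is on chromosome 11 and overlaps Mir155hg. The strands of these genes and of Tspoap1 were not compared with those of the hairpins.

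Libraries held between 393259 and 1586398 miRNA reads (median 796311). The week 8 libraries stood apart from the rest before any member was considered. UniSp2, a synthetic spike-in RNA added at extraction, stood at between 91.1 and 144 per 1000 miRNA reads at week 8 (12 samples) and between 23.3 and 60.4 at the earlier time points (36 samples). The week 8 samples thus all lay above the others by this measure, their median total count was 609384 against 943250 in the others, and no extraction or sequencing batch is given in the sources used here. UniSp2 is 1 of 3 spike-ins counted, and the others were not examined here. The authors describe the recovery of their spike-ins as comparable between samples. Week 8 and whatever the week 8 libraries shared cannot be told apart. miRNAs of red blood cells, the main sign of haemolysis, summed to a median of 26.1% of reads before surgery and 30.9%, 28.9% and 32.4% at weeks 1, 4 and 8. The log2 ratio of miR-451-5p, from red blood cells, to miR-23a-3p, commonly used as a haemolysis index, had medians of 2.30, 2.74, 2.55 and 3.03 at these time points.

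All 7 members were detected in 48 of 48 samples, with a lowest count of 131 (miR-155-5p). Levels are given as RPM, the reads of a miRNA scaled to the total of miRNA reads in its sample. By mean over the 48 samples, miR-150-5p ranked 14 of 645 with 17187 RPM and miR-223-3p ranked 16 with 12969 RPM. miR-146a-5p (4270 RPM) and miR-142-5p (3196 RPM) followed at ranks 43 and 50. miR-146b-5p (714 RPM), miR-142-3p (652 RPM) and miR-155-5p (628 RPM) formed a lower tier at ranks 87, 93 and 96. Together the members took a median of 4.52% of miRNA reads before surgery and 3.68%, 4.74% and 2.53% at weeks 1, 4 and 8.

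Before surgery the 12 rats differed most in miR-150-5p, with 45085 RPM in the highest rat and 10014 RPM in the lowest, and in miR-146a-5p, with 9755 and 2161 RPM. The coefficient of variation over rats was 49.7% for miR-150-5p and 44.0% for miR-146a-5p. Counting alone would give 0.654% and 1.28% at the depth of these libraries. miR-155-5p varied by 33.6%, miR-142-3p by 29.8%, miR-142-5p by 23.5%, miR-223-3p by 22.2% and miR-146b-5p by 18.3%. The spread over rats also holds the variation of extraction and library preparation, which cannot be told apart from that between animals with 1 library a sample.

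The order of mean levels at baseline ran from miR-150-5p over miR-223-3p, miR-146a-5p, miR-142-5p, miR-146b-5p and miR-155-5p down to miR-142-3p. Neighbours in this order held it in 10 to 12 of 12 rats, except for the last pair, miR-155-5p and miR-142-3p, which held it in 7 of 12. At week 8, miR-223-3p stood above miR-150-5p in 12 of 12 rats, and miR-146b-5p had become the lowest member, below miR-155-5p in 12 of 12 rats. In that week miR-146a-5p exceeded miR-142-5p in 7 of 12 rats and miR-142-3p exceeded miR-155-5p in 8 of 12, with overlapping values.

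**Figure D1:**
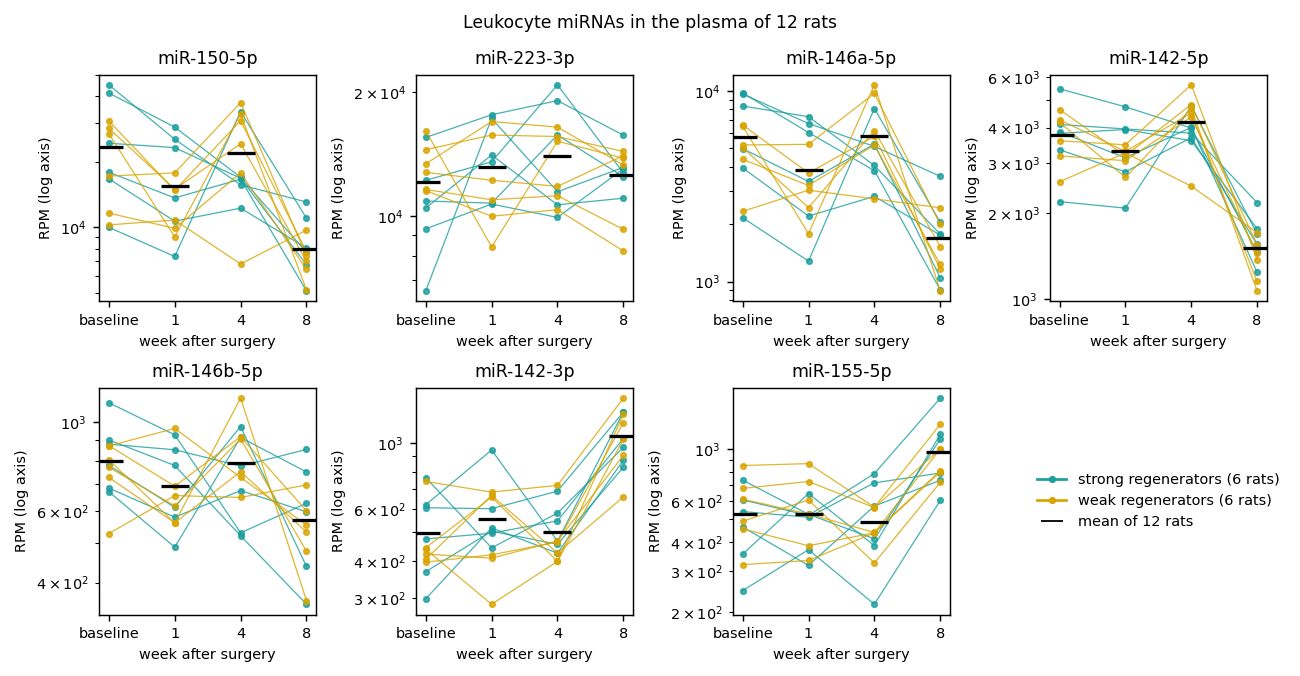
RPM of the 7 members (vertical log axes) at baseline and weeks 1, 4 and 8 (horizontal axes) in 12 rats, with a line for each rat, turquoise for strong and yellow for weak regenerators, and black bars for the mean of 12 rats. At week 8 every rat lies below its own baseline in miR-142-5p and above it in miR-142-3p and miR-155-5p, while miR-223-3p stays in the range of its earlier values.

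Which members changed over the time points was tested against baseline. All rats had surgery, so a change with healing cannot be told apart from one with age or repeated sampling. Changes are log2 fold changes from edgeR's quasi-likelihood test after TMM scaling, which sets the bulk of miRNAs equal between samples, with Benjamini-Hochberg adjusted p-values (FDR) and calls at an FDR under 0.05.

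At week 1 after surgery, 0 of 7 members were called by edgeR, with 1 at an unadjusted p under 0.05, and DESeq2 called 0. Of all 257 miRNAs tested in that comparison, 20.2% were called, 12.5% higher and 7.78% lower. miR-150-5p was lower in 10 of 12 rats (log2 fold change -0.52, SE 0.238, FDR = 0.113 by edgeR). miR-146a-5p was lower in 10 of 12 rats as well (-0.51, FDR = 0.149 by edgeR). Scaled to UniSp2 instead, both passed the threshold (-0.74 each, FDR = 0.0272 and 0.0488), so at this time point the call depends on the scaling. Of all miRNAs, 59 were called with UniSp2 scaling and 52 with TMM. The other members lay between -0.12 and 0.26 with TMM.

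At week 4, edgeR and DESeq2 again called 0 of 7 members, with 1 at an unadjusted p under 0.05, against 4.19% of all 645 miRNAs tested (0.155% higher and 4.03% lower). That member was miR-223-3p, with 8 of 12 rats higher and a log2 fold change of 0.31 (95% interval 0.05 to 0.56, FDR = 0.178 by edgeR). The remaining changes lay between -0.04 (miR-155-5p) and 0.27 (miR-142-5p). Between week 1 and week 4 the count was also 0 of 7 by both tools, with 3 members at an unadjusted p under 0.05 and 0.155% of all miRNAs called.

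At week 8, 6 of 7 members had changed against baseline by edgeR, 4 of them lower (miR-142-5p, miR-146a-5p, miR-146b-5p and miR-150-5p) and 2 higher (miR-142-3p and miR-155-5p). In the same comparison 42.9% of the 595 miRNAs tested were called, 28.1% lower and 14.8% higher. The miRNAs tested reached down to a mean of 0.067 RPM, while the least abundant member, miR-155-5p, had a mean of 628 RPM. The shares of all miRNAs tested, here and in the other comparisons, were not matched to the members by abundance. The median log2 fold change was -0.44 over the 7 members and -0.28 over all miRNAs tested. DESeq2 called 5 of 7, all but miR-146b-5p and miR-223-3p, and its share over all miRNAs is not given here. These directions are relative to the bulk of miRNAs. Scaled to UniSp2, the median of the 310 miRNAs with a mean of at least 10 RPM stood at -2.01 at week 8, in place of -0.13, and all 7 members were called lower. Most other miRNAs were called with this scaling too, 497 in either direction against 255 with TMM. On that scale miR-142-3p (-0.77) and miR-155-5p (-0.96) fell less than this median, miR-223-3p (-1.79) by nearly as much, and miR-142-5p (-3.13), miR-146a-5p (-3.57), miR-150-5p (-3.35) and miR-146b-5p (-2.34) by more.

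**Figure D2:**
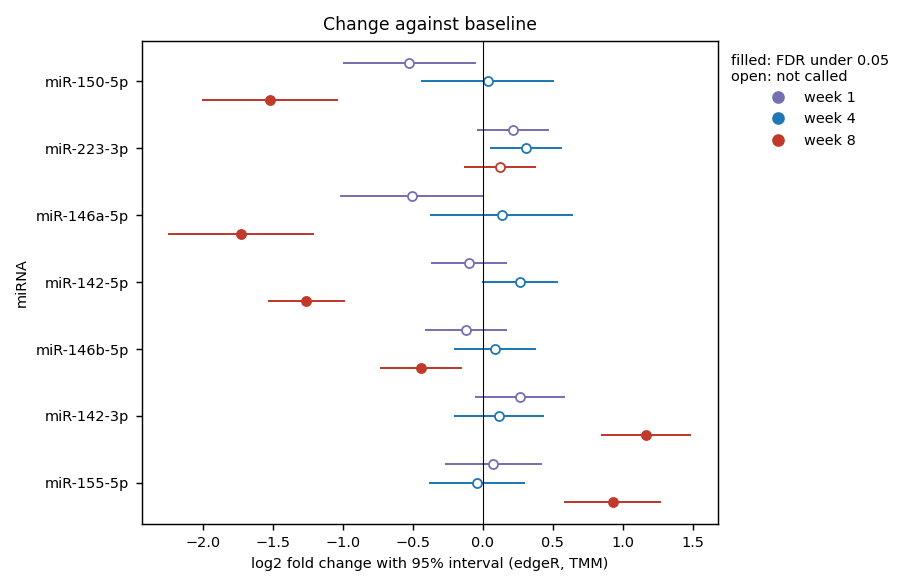
Log2 fold change against baseline (horizontal axis, points) with its 95% interval (bars) for the 7 members (vertical axis) at weeks 1, 4 and 8, from edgeR with TMM scaling over 48 samples. Filled points mark an FDR under 0.05, which 6 members reach at week 8 and none at weeks 1 and 4.

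miR-150-5p, known from mature lymphocytes, ranged from 10014 RPM over a median of 21124 to 45085 RPM at baseline and from 5119 over 7555 to 13083 RPM at week 8. Its mean was 23393 ± 11633 RPM (SD, n = 12) before surgery and 7935 ± 2331 RPM (SD, n = 12) at week 8. It was lower in 11 of 12 rats, though the ranges overlapped. The log2 fold change was -1.52 (SE 0.242, FDR = 6.70e-07 by edgeR), a 2.87-fold lower level.

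miR-146a-5p, which targets the signalling adaptors TRAF6 and IRAK1, ranged from 2161 over a median of 5120 to 9755 RPM at baseline and from 893 over 1639 to 3561 RPM at week 8. It was the member with the steepest decrease, lower in 11 of 12 rats (log2 fold change -1.73, SE 0.261, FDR = 2.13e-07 by edgeR, 3.31-fold lower). Its lowest baseline values lay within the week 8 range.

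miR-146b-5p, with the same seed, ranged from 529 over a median of 792 to 1115 RPM at baseline and from 354 over 577 to 854 RPM at week 8. Its decrease was smaller (log2 fold change -0.44, SE 0.146, FDR = 0.0126 by edgeR) and was seen in 10 of 12 rats with broadly overlapping ranges. This call was not kept under RLE scaling, the size factors of DESeq2 (-0.29, FDR = 0.0858), under DESeq2 (-0.29, FDR = 0.0665), or when rat 3, 6, 7, 17 or 23 was left out (-0.35 to -0.28, largest FDR 0.115). The ratio of miR-146a-5p to miR-146b-5p reads had medians of 6.83, 4.599, 7.48 and 2.77 at baseline and weeks 1, 4 and 8, lowest at week 8, and was not tested.

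miR-142-5p ranged from 2199 over a median of 3843 to 5475 RPM at baseline and from 1068 over 1507 to 2180 RPM at week 8. Every rat was lower at week 8, and the 2 groups of 12 samples did not overlap, which was so for 7.23% of all miRNAs tested. The log2 fold change was -1.26 (SE 0.137, FDR = 4.58e-11 by edgeR, 2.40-fold lower), the smallest FDR among the members.

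miR-142-3p, from the same hairpin, moved the other way. It ranged from 299 over a median of 441 to 763 RPM at baseline and from 658 over 1030 to 1412 RPM at week 8. It was higher in 12 of 12 rats (log2 fold change 1.17, SE 0.161, FDR = 3.30e-08 by edgeR, 2.24-fold higher), with a small overlap of the ranges.

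miR-155-5p, which is induced in activated immune cells, ranged from 247 over a median of 515 to 850 RPM at baseline and from 602 over 904 to 1655 RPM at week 8. It was higher in 12 of 12 rats (log2 fold change 0.93, SE 0.173, FDR = 1.27e-05 by edgeR, 1.90-fold higher).

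miR-223-3p, known from neutrophils and other myeloid cells, ranged from 6576 over a median of 11907 to 16107 RPM at baseline and from 8224 over 13077 to 15721 RPM at week 8. Its cell of origin in plasma was not tested. The log2 fold change was 0.12 (95% interval -0.13 to 0.38, FDR = 0.463 by edgeR), and 7 of 12 rats were higher. The interval leaves room for a change of up to 0.38 on the log2 scale relative to the bulk of miRNAs.

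The step fell between weeks 4 and 8. Between these samples 6 of 7 members were called in the same directions as against baseline, beside 38.2% of the 557 miRNAs tested (13.3% higher and 25% lower). miR-146a-5p fell by 1.86 (FDR = 4.80e-08 by edgeR) and miR-142-5p by 1.53 (FDR = 1.08e-12 by edgeR), each lower in 12 of 12 rats. The miR-142-5p samples of the 2 weeks did not overlap, against 5.92% of all miRNAs tested. miR-150-5p fell by 1.56, lower in 11 of 12 rats, and miR-146b-5p by 0.52, lower in 9 of 12. The miR-146b-5p call was not kept without rat 7 (-0.33) or rat 23 (-0.36). miR-142-3p (1.05) and miR-155-5p (0.97) were higher in 12 of 12 rats. miR-223-3p (-0.19, FDR = 0.249 by edgeR) was not called, and it was called under UniSp2 scaling (-1.71). That scaling called 455 miRNAs, against 213 with TMM. This comparison shares the week 8 samples with the one against baseline, and under UniSp2 scaling miR-142-3p (-0.51) and miR-155-5p (-0.57) turned lower here too.

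Whether the arms of a hairpin moved apart was measured directly from the reads of both arms in the same library, a ratio that does not depend on how libraries are scaled. Of miR-142, the 5p arm gave a median of 8.44 reads per 3p read at baseline (range 3.55 to 13.7), 7.34 at week 1 (2.21 to 10.7) and 8.53 at week 4 (5.31 to 13.2). At week 8 the median was 1.37 (0.857 to 2.50), and in some rats the 3p arm was the more abundant. The log2 ratio was lower than at baseline in 12 of 12 rats, by 2.40 ± 0.628 (SD, n = 12), a 5.29-fold lower ratio. In an exact two-sided sign-flip test over the rats the p was 0.000488, the smallest these 12 rats can give, and 0.00146 after adjustment over 6 arm tests. Every rat was lower in miR-142-5p and higher in miR-142-3p, so this p was fixed by values given above. It adds no separate support, and the size of the shift is what the ratio adds. The week 1 (-0.32, exact p = 0.0776, adjusted 0.155) and week 4 (0.13, exact p = 0.517, adjusted 0.517) differences did not pass. Without rat 3, 21 or 25 the week 1 difference came to -0.40, -0.40 or -0.39 with an unadjusted exact p under the threshold (0.0322, 0.0381 and 0.0439). The reads of both miR-142 arms together had medians of 4349, 3697, 4715 and 2545 RPM at the 4 time points.

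**Figure D3:**
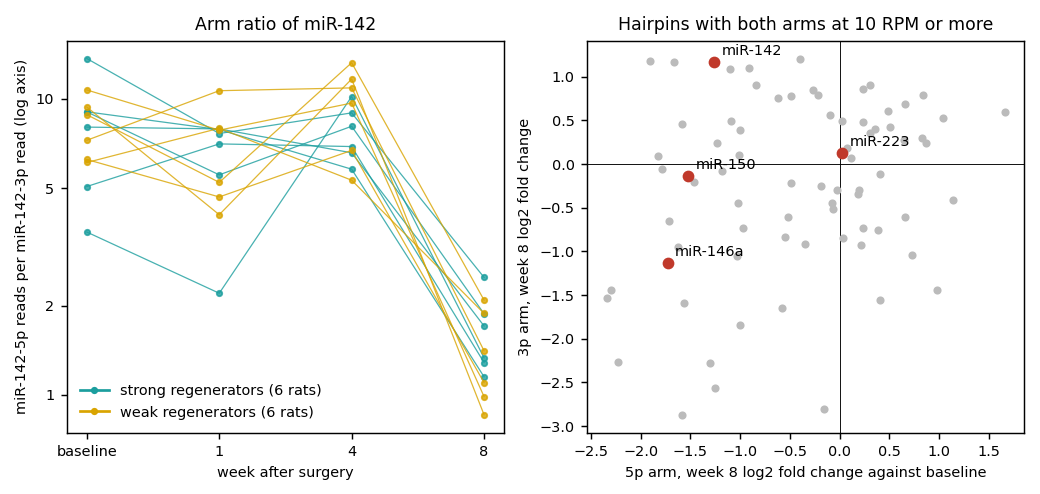
Left, reads of miR-142-5p per read of miR-142-3p (vertical log axis) by time point in 12 rats, turquoise for strong and yellow for weak regenerators. All week 8 ratios lie at or below 2.50 and the baseline ratios start at 3.55. Right, week 8 log2 fold changes against baseline of the 5p (horizontal) and 3p (vertical) arms of 76 hairpins with both arms at a mean of at least 10 RPM, with the hairpins of members in red.

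The miR-150 hairpin also lost 5p relative to 3p reads. The median ratio was 29.03 at baseline and 11.1 at week 8, lower in 12 of 12 rats by 1.35 on the log2 scale (exact sign-flip p = 0.000488, adjusted 0.00146). The miR-150-3p level itself, 749 RPM on average, had a week 8 log2 fold change of -0.14 (FDR = 0.603 by edgeR). The arms of miR-223 (-0.20, exact p = 0.432) and of miR-146a (-0.58, exact p = 0.188) gave no difference past the threshold. miR-146a-3p, at a mean of only 12.3 RPM, was lower at week 8 together with its 5p arm (-1.13, FDR = 0.00173 by edgeR), and miR-223-5p had 0.03 (FDR = 0.939 by edgeR). miR-146b-3p (2.15 RPM) and miR-155-3p (reads in 2 samples) were too sparse for an arm test.

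Opposite moves of the arms of a hairpin were not confined to miR-142. Among 76 hairpins with both arms at a mean of at least 10 RPM, 15 (19.7%) had both arms called in opposite directions at week 8, of which 10 had the 5p arm lower. The median size of the difference between arms was 0.85 on the log2 scale. The difference for miR-142 was the fourth largest, with 3 hairpins above it.

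The samples of strong and weak regenerators were compared to ask whether any member differed with the outcome of healing. Over all time points, with the time point as a covariate, edgeR called 0 of 7 members, with 0 at an unadjusted p under 0.05, and DESeq2 called 0. Of all 645 miRNAs edgeR called 0%, with 64 at an unadjusted p under 0.05. The log2 ratios of strong to weak ran from -0.13 for miR-155-5p (95% interval -0.38 to 0.11, FDR = 0.758 by edgeR) to 0.09 for miR-146a-5p (-0.27 to 0.46). For miR-150-5p the ratio was 0.09 (-0.25 to 0.43) and for miR-223-3p -0.05 (-0.23 to 0.14). These intervals bound the difference between the groups, and they do not show that the groups were equal. The groups also differed in their mix of treatments, which was not in the model. This fit treats the 4 samples of a rat as independent. With the samples of a rat summed, or without the week 8 samples, the count of members called was 0 as well.

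At single time points the count was 0 of 7 by both edgeR and DESeq2 at baseline and at weeks 1, 4 and 8, with 0 members at an unadjusted p under 0.05 each time. Of all miRNAs edgeR called 0% at baseline, week 1 and week 4, and 0.155% at week 8. miR-150-5p shows how the groups lay. Its median in strong regenerators was 21124 RPM before surgery and then 18456, 16730 and 7873 RPM at weeks 1, 4 and 8, and in weak regenerators 22056, 12809, 27527 and 7201 RPM. The strong median was above the weak at week 1 and below it at week 4, within ranges that overlapped at each time point. The change from baseline was tested for a difference between the groups as well, and at weeks 1, 4 and 8 edgeR and DESeq2 called 0 of 7 members and edgeR 0% of all miRNAs. The log2 arm ratio of miR-142, averaged over the 4 samples of a rat, was 2.26 ± 0.371 (SD, n = 6) in strong and 2.31 ± 0.251 (SD, n = 6) in weak regenerators (exact two-sided permutation p = 0.777).

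**Figure D4:**
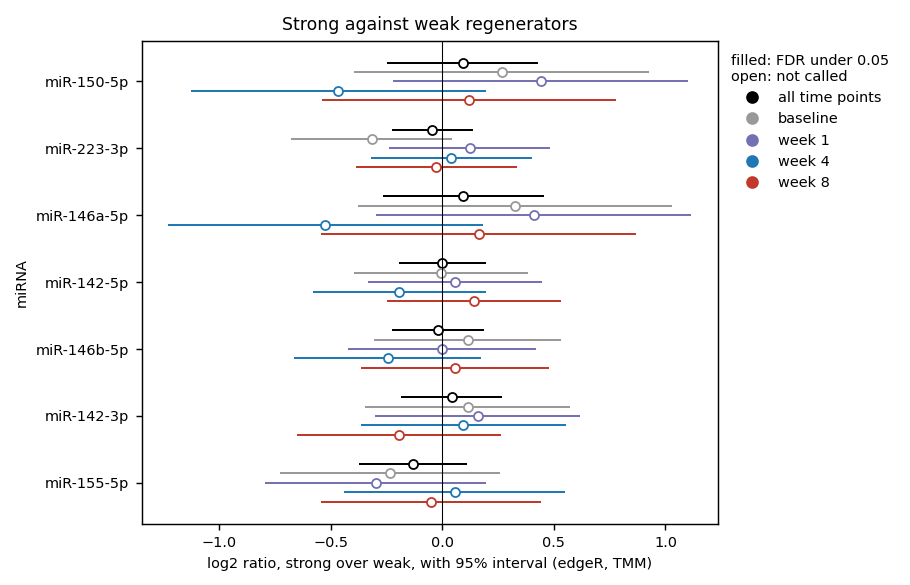
Log2 ratio of strong to weak regenerators (horizontal axis, points) with 95% intervals (bars) for the 7 members (vertical axis), over all time points and at each time point, from edgeR. All points are open, since no FDR is under 0.05, and every interval includes 0.

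How the members varied together was described by the Pearson correlation of their deviations from the means of the 8 groups (time point by regeneration), on log2(RPM + 1) over 48 samples. The 4 samples of a rat are not independent and all members of a sample share its library and depth, so no test was made. The members were set apart by the sign of their week 8 log2 fold change. The 4 lower members made 6 pairs with r between 0.58 and 0.91, the highest for miR-142-5p with miR-150-5p, followed by miR-142-5p with miR-146a-5p and miR-146a-5p with miR-150-5p (0.88 each). The other members, miR-142-3p, miR-155-5p and miR-223-3p, made 3 pairs with r between 0.39 and 0.62. The 12 pairs across these sets had r between -0.33 and 0.26. Without the week 8 samples, over 36 samples, the ranges were 0.57 to 0.93 within the first set, 0.39 to 0.62 within the second and -0.37 to 0.24 across.

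Of the miR-142 hairpin, miR-142-5p and miR-142-3p had an r of -0.10, while miR-142-5p reached 0.91 with a miRNA of another hairpin. miR-146a-5p and miR-146b-5p, which may share reads, had an r of 0.78.

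**Figure D5:**
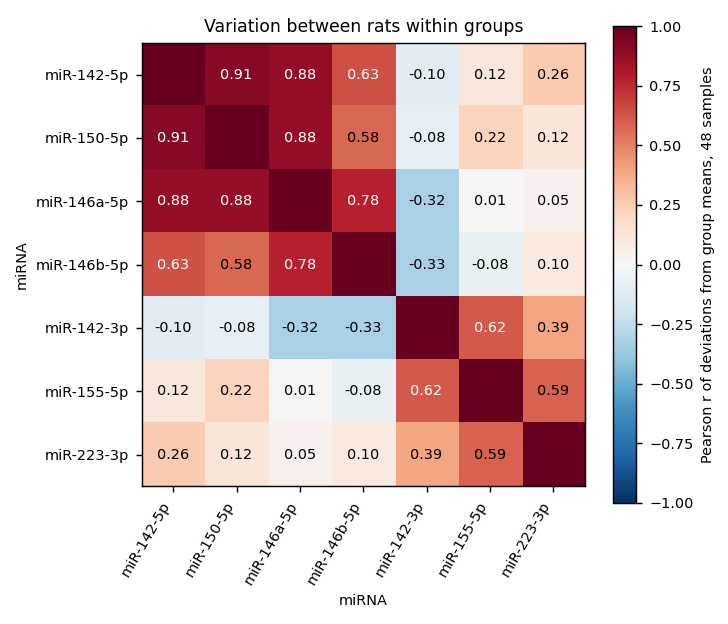
Pearson r of the deviations from 8 group means of log2(RPM + 1) for each pair of the 7 members, over 48 samples, from blue (-1) to red (1). The upper left block holds the 4 members lower at week 8 (0.58 to 0.91) and the lower right block the other members (0.39 to 0.62).

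Among 303 other miRNAs with a mean of at least 10 RPM, the most similar one by the same measure was miR-342-3p for miR-142-5p (r = 0.84) and for miR-150-5p (r = 0.87). It was miR-21-5p for miR-146a-5p (r = 0.92) and for miR-146b-5p (r = 0.72). For miR-155-5p (r = 0.77), miR-223-3p (r = 0.71) and miR-142-3p (r = 0.63) it was miR-363-3p. At week 8 the log2 fold changes of these miRNAs by edgeR were -0.92 for miR-342-3p, -0.91 for miR-21-5p and 1.01 for miR-363-3p. miR-363-3p stands on the red blood cell list below, and miR-342-3p and miR-21-5p are also among the listed blood cell miRNAs.

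Other blood cell miRNAs were read beside the members. Of 18 further miRNAs of haematopoietic and immune cells, 4 were higher and 5 lower at week 8 and 9 were not called, with a median log2 fold change of -0.04. Of all 595 miRNAs tested at week 8, 14.8% were called higher and 28.1% lower. The counts of the 3 lists are to be read beside these shares. The smallest FDRs were those of miR-24-3p (-1.49), miR-19b-3p (0.87) and miR-27a-3p (-0.76). Of 6 red blood cell miRNAs, 3 were higher, miR-144-5p (1.14), miR-451-5p (1.04) and miR-363-3p (1.01), and miR-144-3p was lower (-0.41), so the arms of miR-144 were called in opposite directions as well. Of 7 platelet miRNAs, 2 were higher, miR-221-3p (0.90) and miR-22-3p (0.75), and 2 lower, with miR-199a-3p at -2.80. None of the miRNAs on the 3 lists was at 0 in all 48 samples. The summed share of the platelet list had medians between 8.06% and 8.89% over the 4 time points, and that of the haematopoietic list between 16.9% and 17.7%. At week 1, where no member was called, 4 of 6 red blood cell miRNAs were called higher, beside 12.5% of all 257 miRNAs tested. The part that red blood cell content had in the values of the members was not tested.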

How the data were processed

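Total RNA was extracted by the authors from rat plasma, with synthetic spike-ins, and sequenced by single-adapter ligation. Reads were trimmed with cutadapt 3.3 (minimum length 17 nt) and mapped with bowtie 1.3.0 and miRDeep2 to the rat genome (2 mismatches) and then to rat miRBase (1 mismatch). The submitters' processing notes name the human build GRCh38.p12, where the methods name Rnor 6.0. The deposited values are raw counts of 645 mature miRNAs and 3 spike-ins in 48 samples, without normalization. The 95% intervals are those of the edgeR fit and include the variation between samples, while the counting variation given for baseline covers counting error only.

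Counts were tested with edgeR 4.0.16 in R 4.3.3 (TMM, quasi-likelihood, time point and regeneration as terms, or 8 group means for single time points and interactions). A filter on mean RPM followed the rule of DESeq2, so the number tested differs between comparisons. Alternatives were library size, RLE and UniSp2 scaling, filterByExpr, no filter, DESeq2 1.42.0, the rat as a replicate block, only the time points compared, the samples of a rat summed, and each rat left out. Arm ratios, log2 with 0.5 added to both counts, were tested by 4096 sign flips over rats, or by the 924 splits of 6 against 6 rats. Python was version 3.11.15 (pandas 2.3.3, numpy 2.4.6, scipy 1.17.1, matplotlib 3.10.9). The edgeR test was checked on simulated counts with independent samples and equal numbers of miRNAs raised and lowered. That check does not cover repeated samples of a rat or an uneven change at week 8.

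Samples with one number are from one rat, by the labels. Their deviations from group means had a mean r of 0.107 (6 of 12 rats over 0.1), against -0.03 between rats. The least different pair of samples still had a chi-square of 24.7 per degree of freedom, so none was a copy. The members and lists were chosen with earlier results of these data known. Besides the members, the text names the other arms of their hairpins, the most similar miRNA of each member, up to 3 miRNAs per list with the smallest week 8 FDR, and markers of red blood cells and scaling. miR-144-3p was named after its value was seen. Treatments, bone volumes and reads were not used here.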

Additional observations from a re-analysis of the deposited data

Results flagged for a closer look

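The same 8 groups of 6 samples were examined for each of several quantities, which gave 64 sets of 6 values. In 6 of these sets a sample lay far from the others (gap to the nearest sample over 0.625 of the set's range). For independent sets chance gives about 1 in 20, or 3.2. The sets are not independent, since they share samples and members vary together, so no conclusion is drawn from the count. Among strong regenerators, rat 5 was highest at week 4 in miR-142-5p (4761 RPM, nearest 4008) and in miR-150-5p (33985 RPM, nearest 16978), and at week 1 in miR-142-3p (945 RPM, nearest 600.4). Among weak regenerators, rat 16 was highest in miR-142-3p at baseline (741 RPM, nearest 444) and at week 4 (719 RPM, nearest 468), and rat 6 in miR-146b-5p at week 1 (963 RPM, nearest 693).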

How the results depend on the processing

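The members called at weeks 4 and 8 and between strong and weak regenerators, and the week 8 arm differences, kept their direction and their side of the threshold under all alternatives run, apart from the values given here and in the report. The rat as a replicate block changed no call (6 of 7 members at week 8, 0 at weeks 1 and 4).

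Scaling to UniSp2 moved the week 1 count to 2 members. It turned the week 1 values of miR-223-3p (-0.089), miR-142-3p (-0.022) and miR-155-5p (-0.20), and the week 4 values of miR-223-3p (-0.074), miR-142-5p (-0.10), miR-142-3p (-0.26), miR-146a-5p (-0.24), miR-146b-5p (-0.30) and miR-150-5p (-0.32). At week 8 it turned miR-223-3p (-1.79), miR-142-3p (-0.77) and miR-155-5p (-0.96), and between weeks 4 and 8 miR-142-3p (-0.51) and miR-155-5p (-0.57). Library size turned miR-155-5p at week 1 (-0.00713) and miR-146b-5p (-0.0147) and miR-150-5p (-0.0768) at week 4. The causes were not tested.

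Between strong and weak regenerators, values near 0 turned under library size for miR-223-3p (0.0243), miR-142-5p (0.0619) and miR-146b-5p (0.0390), with samples summed for miR-223-3p (0.0377) and miR-146b-5p (0.0213), and for miR-142-5p under RLE (0.0128), DESeq2 (0.0126) and filterByExpr (0.00456). Leaving out a rat gave ranges of -0.113 to 0.0462 (miR-223-3p), -0.0597 to 0.0473 (miR-142-5p), -0.0276 to 0.159 (miR-142-3p), -0.0272 to 0.179 (miR-146a-5p), -0.0763 to 0.0469 (miR-146b-5p), -0.00325 to 0.19 (miR-150-5p) and, for the miR-142 arm ratio, -0.16 to 0.0625. At week 1 it gave -0.0141 to 0.14 for miR-155-5p and -0.40 to -0.24 for the miR-142 arm ratio. At week 4 it gave -0.12 to 0.15 for miR-150-5p, -0.12 to 0.0323 for miR-155-5p and -0.00128 to 0.196 for the miR-142 arm ratio.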
